A study of Mus musculus with 112 samples.

Results

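The 200 probes described here were those with the highest signal in amygdala relative to prefrontal cortex in saline-treated mice. They were chosen from their signal alone: raw intensities of 9 saline amygdala and 10 saline prefrontal cortex arrays were put on the log2 scale and quantile normalised, and of the 18612 probes above background on all 9 amygdala arrays, out of 45281 on the array, the 200 with the largest mean difference were kept. The difference between regions under saline is therefore what defined them and is given as a description. Of the 200 probes, 178 had 1 gene symbol and 22 had none, and the 178 stood for 148 genes, 27 of which had 2 or more member probes. They were followed in both brain regions and in liver of mice given drugs that activate PPARs, the peroxisome proliferator-activated receptors.

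Transcript levels were measured on Illumina bead arrays in whole-tissue RNA of male C57BL/6J mice. Mice received fenofibrate at 150 mg/kg (a PPARα agonist), tesaglitazar at 1.5 mg/kg (an agonist of PPARα and PPARγ), bezafibrate at 75 mg/kg (an agonist of all PPAR subtypes) or saline. Doses were given by mouth each morning over 8 days, and the agonists were suspended in saline with Tween-80, although the labels also speak of injection. The ages of the mice, the way the regions were dissected and whether the saline mice received Tween-80 are not given in the sources used here. The 112 arrays comprised 9 fenofibrate, 10 tesaglitazar, 9 bezafibrate and 9 saline arrays of amygdala, 9, 9, 10 and 10 of prefrontal cortex in the same order of treatments, and 9, 9, 9 and 10 of liver. Within a tissue the labels describe separate animals, so p-values measure the spread between mice. Array numbers, taken as the mouse, recur across tissues, so amygdala and cortex share 35 mice and are not independent sets of animals. In bulk tissue, fewer cells of a type and less RNA per cell cannot be told apart. Doses differed between agonists, so comparisons between them are of these treatments as given.

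The amygdala is a group of nuclei in the temporal lobe that handles fear, reward and social signals. Its basolateral part is built like cortex, from glutamatergic projection neurons, whereas its central and medial parts are built largely of GABAergic neurons rich in neuropeptides. The prefrontal cortex is a layered neocortex. A block of amygdala tissue borders hippocampus, striatum, thalamus and hypothalamus, and genes known from those places were followed as marker lists. PPARs act as heterodimers with retinoid X receptors, bind repeats of the hexamer AGGTCA and drive genes of lipid handling, most strongly in liver.

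Several arrays stood apart on these probes. Among amygdala arrays, saline 25 was low for a large set of members and high for others. Among prefrontal cortex arrays, fenofibrate 20 was high for many members: its mean log2 level over the 200 was 8.12, against a range of 7.57 to 8.12 over the fenofibrate prefrontal cortex arrays with it included and 7.65 to 7.90 over the tesaglitazar arrays. Over the fenofibrate prefrontal cortex arrays as a group, the summed signal of 16 choroid plexus probes reached 30373 intensity units against a median of 503. That of 33 thalamus probes reached 13123 against a median of 4084. The arrays that held these highest sums are not named here. Amygdala groups also held arrays with a high choroid plexus sum, which reached 30919 against a median of 1276 under fenofibrate, 26569 against 1319.5 under tesaglitazar, 33074 against 1288 under bezafibrate and 7711 against 1125 under saline. The prefrontal cortex arrays saline 2 and saline 4 were high for smaller sets. In liver, the arrays labelled saline 4 and tesaglitazar 6 each lay with the other's group, at 0.989 and 0.0235 on a scale on which the saline mean is 0 and the tesaglitazar mean is 1, so liver results are given with and without them.

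The promoters of 4 genes are shown here because their genes recur below. Trh and Cartpt encode amygdala-enriched neuropeptides, and Slc27a2 and Lamb3 changed in liver. Each window covers 250 bases before and 50 bases after the gene's start, from RefSeq on build GRCm38.p6, and is written 5′ to 3′ on the gene's strand with matches to a motif in capitals. Windows were found for 113 of the 148 genes, 155 windows in all. AGGTCA, searched on both strands, was present in 9 of these windows (5.81%) and in 16.3% of all 32851 windows of that length. The windows with it belonged to Ano2, Gaa, Gfap, Gstm1, Igsf1, Nhsl1, Rem2, Slc27a2 and Trh. The PPAR repeat AGGTCANAGGTCA, which contains the hexamer, was in none of the members' windows and in 0.0396% of all windows. The cyclic AMP response element TGACGTCA, which contains neither of these motifs, was in 5 windows (3.23%), those of Cartpt, Celf6, Ddx49 and Zdbf2, and in 1.79% of all. Trh lies at chr6:92244601-92244900 on the minus strand, and its capitals mark AGGTCA read on the opposite strand, with the first base 57 bases before the start. Cartpt lies at chr13:99900634-99900933 on the minus strand, with TGACGTCA beginning 112 bases before the start. Slc27a2 lies at chr2:126552774-126553073 on the plus strand, with AGGTCA on the opposite strand 220 bases before the start. Lamb3 lies at chr1:193301744-193302043 on the plus strand and holds none of the motifs.
Trh: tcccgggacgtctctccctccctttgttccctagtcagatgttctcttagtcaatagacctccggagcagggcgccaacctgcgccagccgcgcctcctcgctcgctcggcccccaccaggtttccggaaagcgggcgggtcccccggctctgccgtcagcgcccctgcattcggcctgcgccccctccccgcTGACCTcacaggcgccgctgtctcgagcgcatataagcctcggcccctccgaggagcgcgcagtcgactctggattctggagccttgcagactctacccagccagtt
Cartpt: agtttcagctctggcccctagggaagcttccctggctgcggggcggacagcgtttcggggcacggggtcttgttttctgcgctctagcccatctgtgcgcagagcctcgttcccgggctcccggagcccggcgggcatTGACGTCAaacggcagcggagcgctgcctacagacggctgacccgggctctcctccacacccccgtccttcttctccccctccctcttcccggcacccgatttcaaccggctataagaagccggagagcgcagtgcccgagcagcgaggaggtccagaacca
Slc27a2: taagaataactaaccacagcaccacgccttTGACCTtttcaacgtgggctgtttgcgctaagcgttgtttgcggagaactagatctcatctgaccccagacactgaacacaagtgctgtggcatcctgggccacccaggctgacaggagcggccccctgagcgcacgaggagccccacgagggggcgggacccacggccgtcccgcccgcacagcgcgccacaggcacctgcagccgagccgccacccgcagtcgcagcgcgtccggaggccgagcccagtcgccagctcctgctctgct
Lamb3: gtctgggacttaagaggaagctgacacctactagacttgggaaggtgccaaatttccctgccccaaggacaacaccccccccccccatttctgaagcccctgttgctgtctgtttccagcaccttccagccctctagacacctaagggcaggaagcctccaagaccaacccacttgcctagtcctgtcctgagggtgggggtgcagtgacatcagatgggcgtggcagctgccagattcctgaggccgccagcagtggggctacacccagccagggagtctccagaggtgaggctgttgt

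Under saline, the difference that chose the members ran between 2.80 log2 units for Tsr3, which modifies ribosomal RNA, and 0.78 for Lman2l, a cargo receptor of the secretory pathway. The 20 at the top were Tsr3 (2 probes), C1ql2, Dlk1, Doc2b, Ecel1, Hap1, Gfap, Dcn, Necab2, Igsf1 (2 probes), Spink8, Trh, Fibcd1, Tmem255a (2 probes), Trhr, Lypd1 and Wdr6. Just inside the limit lay Acss1, Kctd12, Nsg2, Rem2 and Lman2l, with differences of 0.78, and just outside lay Col23a1, Rhbdl3, Grp, Selenow and 1 unnamed probe, with differences of 0.78 to 0.77. The limit therefore falls within a continuous run of values. Of the 178 members with a chromosome, 14 (7.87%) were on chromosome X, among them Igsf1, Tmem255a and Zcchc12, against 3.06% of the probes above background in saline amygdala. By the rule that chose them, all 200 members were above background on all saline amygdala arrays. They were also above background on all arrays of each agonist amygdala group. In prefrontal cortex, 181 were above background on all arrays under fenofibrate, 185 under tesaglitazar, 181 under bezafibrate and 179 under saline. Most members were thus expressed in both regions and differed in level. The share of all probes detected on all arrays of a group is not given here.

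The difference between regions was then tested in agonist-treated mice, whose arrays did not enter the choice. These tests used background-corrected signal and the choice did not, so the saline differences above are on another scale. On the corrected scale the first Tsr3 probe had saline means of 10.05 in amygdala and 6.43 in cortex. Higher in amygdala were 195 of 200 members under fenofibrate, 200 under tesaglitazar and 200 under bezafibrate, where of all 24719 probes tested 24.7%, 20.9% and 21.7% were higher (limma on log2 intensity over 56 agonist-treated brain arrays, Benjamini-Hochberg adjusted p under 0.05, two-sided). The members' median difference was 1.42, 1.40 and 1.46 log2 units, against 0.00, -0.01 and 0.00 for all probes. At least a 2-fold difference was reached by 154, 153 and 164 members. In all 3 treatments 195 members were higher. The shares of all probes that reached 2-fold, or were higher in all 3 treatments, are not given here. Every amygdala array lay above every prefrontal cortex array for 148 members under fenofibrate, 181 under tesaglitazar and 187 under bezafibrate, compared with 7.04%, 5.86% and 5% of all probes tested. Of the 200 probes with the largest difference in each agonist group, 108, 115 and 116 were members.

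Of the neuropeptide list, Trh, Gal and Cartpt were members. Trh, the precursor of thyrotropin-releasing hormone, had a lowest, median and highest log2 level of 7.72, 8.25 and 9.48 in fenofibrate amygdala, against 4.72, 5.30 and 9.90 in fenofibrate prefrontal cortex. The highest cortical value was that of fenofibrate 20, and the next was 6.24, so the groups overlapped through that array. The difference was 2.67 ± 0.41 (SE, adjusted p = 1.62e-07), and 3.19 ± 0.31 without that array. Under tesaglitazar Trh read 7.96, 9.16 and 10.47 in amygdala and 4.97, 5.65 and 6.81 in cortex, a difference of 3.44 ± 0.40 with no overlap. Under bezafibrate the difference was 4.02 ± 0.40, the amygdala arrays spanning 7.62 to 10.70 and the cortex arrays 4.99 to 5.99. Trhr, the receptor for this hormone, was higher in amygdala by 2.94, 2.96 and 3.26 in fenofibrate, tesaglitazar and bezafibrate mice. The ligand and its receptor were thus both in the set.

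Gal, the precursor of galanin, read 7.36, 8.10 and 8.70 (lowest, median, highest) in fenofibrate amygdala and 4.19, 4.36 and 7.90 in fenofibrate cortex, where it was above background only on fenofibrate 20. Its difference there was 3.30 ± 0.30, and without that array no cortex array of the group was above background. Gal was above background on 2 of 9 tesaglitazar cortex arrays and on none of 10 bezafibrate cortex arrays. Under bezafibrate its amygdala level (mean 7.25) was therefore at least 6.13-fold higher than in cortex (mean 4.36), a bound set by the lowest signal above background on each cortex array. Cartpt, the precursor of the CART peptide, read 9.13, 9.83 and 10.06 in fenofibrate amygdala and 6.55, 6.82 and 7.54 in fenofibrate cortex, without overlap. Under tesaglitazar it spanned 8.70 to 10.20 in amygdala and 6.76 to 7.28 in cortex, and under bezafibrate 8.78 to 9.96 and 6.86 to 7.73, again without overlap. Its differences were 2.72, 2.47 and 2.28 in fenofibrate, tesaglitazar and bezafibrate mice.

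Ecel1, an endothelin-converting-enzyme-like protease of neurons, had one of the largest differences of all. Its levels were 8.53, 9.27 and 9.50 in fenofibrate amygdala and 4.41, 4.61 and 5.60 in fenofibrate cortex. Under tesaglitazar the arrays spanned 8.79 to 9.86 in amygdala and 4.38 to 5.26 in cortex, and under bezafibrate 8.50 to 9.72 and 4.29 to 5.86. No cortical array came near the amygdala range. The differences were 4.42 ± 0.18, 4.45 ± 0.17 and 4.39 ± 0.17 in fenofibrate, tesaglitazar and bezafibrate mice (adjusted p = 1.27e-28 under fenofibrate). Among receptors, Npy2r, a neuropeptide Y receptor, was higher in amygdala by 2.77, 2.56 and 2.76, on arrays spanning 7.29 to 8.27, 7.22 to 8.32 and 7.51 to 8.60 in amygdala against 4.62 to 5.16, 4.80 to 5.63 and 4.61 to 5.50 in cortex. The 8.60 was that of bezafibrate 34, which stood apart in its group. These ranges were far apart under each agonist. Rxfp3, the relaxin-3 receptor, was higher by 1.93, 1.77 and 2.03. Nos1, neuronal nitric oxide synthase, was higher by 2.42, 2.19 and 2.03.

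Transmitter genes of both kinds were present. Slc17a6, the vesicular glutamate transporter used mostly by subcortical neurons, read 10.82, 11.62 and 11.80 in fenofibrate amygdala, against 8.76, 9.05 and 9.72 in fenofibrate cortex. It read 9.75, 11.13 and 11.69 in tesaglitazar amygdala against 8.79, 9.08 and 9.28 in cortex, and 9.65, 10.77 and 11.51 in bezafibrate amygdala against 9.02, 9.10 and 9.38. The groups did not overlap under any agonist, and the differences were 2.32, 1.94 and 1.68 in fenofibrate, tesaglitazar and bezafibrate mice. Gad2, which makes GABA, was the only member of the GABAergic list and was high in both regions, at medians of 12.10 in fenofibrate amygdala and 10.78 in fenofibrate cortex. The cortex array fenofibrate 20 read 12.05, within the amygdala range, and the next cortex array of its group 10.98. The cortex array bezafibrate 15 stood apart at 11.10, below every bezafibrate amygdala array. The differences were 1.21, 1.25 and 1.02, and 1.35 under fenofibrate without fenofibrate 20. Calb2, the calcium-binding protein calretinin, was higher in amygdala by 1.65, 1.77 and 2.22, and without fenofibrate 20, on which it read 12.64 in cortex, its fenofibrate difference was 2.05. Doc2b, a calcium sensor of vesicle release, was higher by 3.62, 3.34 and 3.33, Necab2, a neuronal calcium-binding protein, by 2.64, 2.52 and 2.61, and Otof, a calcium sensor known from hearing, by 1.87, 1.98 and 1.74.

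Developmental and transcriptional regulators were also among the members. Dlk1, a paternally expressed membrane protein related to Notch ligands, read 8.72, 9.46 and 10.50 in fenofibrate amygdala and 4.54, 5.25 and 7.001 in fenofibrate cortex, with no overlap. It read 8.94, 9.40 and 10.24 in tesaglitazar amygdala against 5.07, 5.26 and 6.11 in cortex, and 9.11, 9.70 and 9.98 in bezafibrate amygdala against 4.64, 5.08 and 6.36. The highest fenofibrate cortex value was that of fenofibrate 20, without which the difference was 4.56, and the highest tesaglitazar one that of tesaglitazar 28. Its differences were 4.35 ± 0.24, 4.07 ± 0.23 and 4.30 ± 0.23 in fenofibrate, tesaglitazar and bezafibrate mice. Another Dlk1 probe of the set was above background on no tesaglitazar cortex array, and there the amygdala level was at least 7.22-fold higher. Nnat, another paternally expressed gene, was higher by 2.28, 2.29 and 2.35. Nr2f2, a nuclear receptor of caudal telencephalon, was higher by 2.90, 2.82 and 3.22. Meis1, a homeodomain factor, was higher by 2.54, 2.28 and 1.95, on arrays spanning 7.66 to 9.07 in fenofibrate amygdala and 5.25 to 9.54 in fenofibrate cortex, the upper end being fenofibrate 20. Lmo3, a transcriptional cofactor, was higher by 1.50, 1.30 and 1.23. Hap1, the huntingtin-associated protein, was among the brightest members, with medians of 12.92 in fenofibrate amygdala and 10.38 in fenofibrate cortex and differences of 2.41, 2.52 and 2.47. Its highest fenofibrate cortex value, 11.57, was that of fenofibrate 20, and without it the difference was 2.55.

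Glial and secreted products formed a further group. Gfap, the intermediate filament of astrocytes, read 9.86, 10.29 and 10.93 in fenofibrate amygdala and 7.48, 7.998 and 10.53 in fenofibrate cortex. Only fenofibrate 20 entered the amygdala range. It read 9.89, 10.35 and 10.71 in tesaglitazar amygdala against 7.93, 8.19 and 8.71 in cortex, and 9.75, 10.28 and 10.65 in bezafibrate amygdala against 7.39, 8.12 and 8.57, with no overlap. The differences were 2.20 ± 0.21, 2.07 ± 0.20 and 2.11 ± 0.20 in fenofibrate, tesaglitazar and bezafibrate mice, and 2.50 under fenofibrate without that array. Agt, angiotensinogen, which astrocytes make in brain, had the smallest adjusted p of all members under fenofibrate, with a difference of 3.38 ± 0.11 (adjusted p = 2.34e-32), and differences of 3.11 and 3.04 in tesaglitazar and bezafibrate mice. In fenofibrate mice Agt spanned 7.29 to 8.62 in amygdala and 4.46 to 4.91 in cortex. Gpx3, a secreted glutathione peroxidase, was higher in amygdala by 2.56, 1.85 and 1.58. Dcn, the matrix proteoglycan decorin, was higher by 0.70 ± 0.23 (adjusted p = 0.00971) under fenofibrate, 1.75 under tesaglitazar and 2.19 under bezafibrate.

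Probes of 1 gene did not always move together. The 2 Tsr3 members, which headed the list, were higher in amygdala by 4.43 ± 0.20 and 4.27 ± 0.19 under fenofibrate, 4.35 and 4.24 under tesaglitazar and 3.77 and 3.59 under bezafibrate. The first read 10.24, 11.08 and 11.60 in fenofibrate amygdala and 6.03, 6.65 and 7.54 in fenofibrate cortex, 10.23, 10.74 and 11.06 in tesaglitazar amygdala and 5.95, 6.31 and 7.19 in cortex, and 9.09, 10.07 and 10.89 in bezafibrate amygdala and 5.85, 6.46 and 7.27 in cortex. No amygdala array of an agonist group reached down to the cortex arrays. Another Tsr3 probe, no member, was lower in amygdala by -0.50 ± 0.08 (adjusted p = 1.06e-06), -0.53 and -0.39 in fenofibrate, tesaglitazar and bezafibrate mice. On build GRCm38.p6, Tsr3 occupies bases 25240141 to 25242799 of chromosome 17 and Baiap3, a regulator of dense-core vesicle traffic in neurons, occupies bases 25242659 to 25256364, with 141 bases in common. A Baiap3 probe, no member, was above background on all agonist amygdala arrays and on none of the agonist cortex arrays. Its amygdala level was at least 4.67-fold higher under fenofibrate, 4.06-fold under tesaglitazar and 3.22-fold under bezafibrate. Another Baiap3 probe, also on no agonist cortex array, was above background on 8 of 9, 7 of 10 and 4 of 9 amygdala arrays under fenofibrate, tesaglitazar and bezafibrate, and was at least 1.17-fold and 1.03-fold higher under fenofibrate and tesaglitazar, with no bound above 1 under bezafibrate. Which transcript the 2 Tsr3 members detect was not tested, so their values are given by probe. Over all member genes, 99 other probes were tested, of which 66 were higher in amygdala in all 3 treatments and 2 were lower in all 3. Of all 24719 probes, 6113, 5164 and 5361 were higher and 5803, 5209 and 5349 lower in fenofibrate, tesaglitazar and bezafibrate mice. The share of all probes over the 3 treatments together is not given here.

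The 5 members not called under fenofibrate were Fibcd1, Nsg2, both Thsd4 probes and 1 of 2 Dcn probes. Fibcd1, a chitin-binding membrane protein known from hippocampal pyramidal cells, differed by 0.75 ± 0.47 (adjusted p = 0.189) under fenofibrate, 1.18 ± 0.46 (0.0326) under tesaglitazar and 1.51 ± 0.46 (0.00586) under bezafibrate. The tesaglitazar call was lost with no detection filter (adjusted p = 0.0654), with the authors' processed values (0.0517), with all 8 brain groups (0.0513) and with the replicate block (0.0727). Its amygdala arrays spanned 7.41 to 11.31 in fenofibrate amygdala, 7.29 to 11.11 in tesaglitazar amygdala and 7.11 to 11.47 in bezafibrate amygdala, all of which overlapped cortex. The Thsd4 probes, for a matrix protein, differed by 0.15 ± 0.29 and 0.62 ± 0.27 under fenofibrate (adjusted p = 0.687 and 0.0554). Nsg2, a neuronal endosomal protein, differed by 0.32 ± 0.14 (adjusted p = 0.0566). The second Dcn probe differed by 0.45 ± 0.24 (adjusted p = 0.12). Without the cortex array fenofibrate 20, 196 members were higher under fenofibrate.

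Marker lists of the tissue and its neighbours, which share genes with the members and were drawn up with earlier results of these data known, placed the members among other genes. The lists count genes, some with several probes. Of all 24719 probes, 24.7%, 20.9% and 21.7% were higher in amygdala in fenofibrate, tesaglitazar and bezafibrate mice, and 5803, 5209 and 5349 probes were lower. Of 16 tested genes on the central and medial amygdala list, 13 were higher in amygdala under fenofibrate, 13 under tesaglitazar and 12 under bezafibrate, and 1, 1 and 0 were lower, with probe medians of 0.83, 0.82 and 0.98. Members on it were Cartpt, Dlk1, Ecel1 and Gal, and among the others Nts, the precursor of neurotensin, was higher by 2.17, 2.03 and 1.73 and Greb1, an estrogen-induced gene, by 1.28, 1.11 and 1.22. Of 11 basolateral genes, 6 were higher and 2 lower under each agonist. The basolateral members were Lypd1, Nr2f2, Lmo3 and Otof, and the lower genes included Dkk3, a secreted Wnt pathway protein, at -2.36, -2.30 and -2.30 for 1 of its probes. Of 9 cortical excitatory genes, 1 was higher under each agonist and 7, 6 and 6 were lower, among them Lamp5 by -1.59, -1.67 and -1.87. The summed signal of 31 central and medial amygdala probes had medians of 10553 units in amygdala against 5145 in cortex under fenofibrate, 10179.5 against 5629 under tesaglitazar and 9544 against 5280.5 under bezafibrate. That of 22 basolateral probes was lower in amygdala at the median, at 13761 against 15954, 14079.5 against 15167 and 14337 against 14945.

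Lists for neighbouring tissue and other cells gave mixed counts. These are to be read against the 24.7%, 20.9% and 21.7% of all probes that were higher, although the lists count genes and not probes. Lower were 5803, 5209 and 5349 of all 24719 probes. Of 9 hypothalamus genes 7, 6 and 6 were higher and none lower, with Trh, Gal, Nnat and Hap1 as members and Avp, the precursor of vasopressin, at 2.91, 2.31 and 1.34. Of 8 thalamus genes 6 were higher and 2 lower under each agonist, with Calb2, Ntng1 and Slc17a6 as members. Of 7 hippocampus genes 4, 6 and 6 were higher and 0, 1 and 0 lower, with C1ql2, Spink8 and Fibcd1 as members. Of 24 striatal genes 16, 19 and 9 were higher and 3, 3 and 5 lower, with Syndig1l, an AMPA receptor-associated protein, as the member. Of 9 choroid plexus genes 2, 3 and 7 were higher and none lower. Of 12 myelin genes 5, 2 and 1 were higher and 0, 0 and 6 lower. The summed signal of 21 hypothalamus probes spanned 7193 to 13123 intensity units in fenofibrate amygdala against 1649 to 4816 in cortex, 8611 to 11172 against 1630 to 2369 under tesaglitazar, and 8460 to 10458 against 1528 to 2193 under bezafibrate. That of 33 thalamus probes spanned 8679 to 14372 against 3715 to 13123, 7372 to 13122 against 3757 to 5266, and 7340 to 11911 against 3884 to 4408. What neighbouring tissue contributed to the members' differences was not tested.

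The other lists held few members or none. Of 20 neuropeptide genes 11, 10 and 9 were higher and 4, 4 and 5 lower, of 15 peptide and hormone receptor genes 11, 11 and 9 were higher and 3, 3 and 2 lower, and of 10 GABAergic genes 7, 6 and 6 were higher and 1, 0 and 0 lower. Of 8 astrocyte genes 4, 3 and 5 were higher and 1, 1 and 0 lower. Of 8 microglia genes 3, 1 and 0 were higher and 2, 2 and 3 lower, and of 5 endothelial genes none was higher and 3, 4 and 4 were lower. Of 9 immediate early genes none was higher and 5, 5 and 4 were lower, among them Arc by -0.88, -1.27 and -0.81. The remaining short lists gave 2, 3 and 0 cholinergic genes of 4 higher and 1 lower in each, 0, 1 and 0 of 2 blood genes lower and none higher, and 2 of 3 hepatocyte genes higher in each with 1, 0 and 1 lower. Of 7 tested genes for PPARs, retinoid X receptors and their coactivators 2 were higher under each agonist and 4, 4 and 3 were lower. Pparg was lower in amygdala by -1.95, -1.64 and -1.49 and Rxrg was higher by 1.93, 1.76 and 1.20. Of 16 PPAR target genes 4, 3 and 5 were higher and 5, 5 and 6 lower. These counts of genes stand beside 24.7%, 20.9% and 21.7% of all probes that were higher under the agonists in the same order. Lower were 5803, 5209 and 5349 of all 24719 probes.

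Amygdala arrays of 1 treatment differed from each other in large part along a single direction. After each group's mean was taken out, the first principal component of the 200 members held 50.6% of the variance over the 37 amygdala arrays, with 89 members loading one way and 111 the other. Fibcd1, Ddx49, Popdc3, Thsd4, Spink8, Pkp2 and C1ql2 led one side, and Tsr3, Gal, Slc17a6, Gpx3, Meis1 and Unc13c led the other. The highest scores were those of saline 25 (11.44), fenofibrate 40 (6.81) and bezafibrate 34 (5.74), and the lowest were those of saline 22 (-6.82), saline 24 (-6.66) and saline 5 (-5.32). All 4 treatments had arrays on both sides. On saline 25, Fibcd1 read 12.25 and C1ql2 10.93, the highest values of their group, while Tsr3 read 7.40, Gpx3 5.63 and Gal 4.95, the lowest. The summed signal of 9 hippocampus probes ranged from 765 to 4222 intensity units in fenofibrate amygdala, 700 to 3328 in tesaglitazar, 744 to 4123 in bezafibrate and 1030 to 8952 in saline amygdala, with 5 to 9 of the probes above background. Its medians were 952, 1282, 1565 and 3137, and in cortex 485, 490, 517.5 and 470.5. The hippocampus list holds members, and its part in their values was not tested. In prefrontal cortex the first component of the members held 40.5% of the variance over 38 arrays, with 162 members loading one way and 38 the other. The highest score there was that of fenofibrate 20 (12.12). The share for all probes is not given here.

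Between agonists, few members passed the adjusted threshold in amygdala. Fenofibrate and tesaglitazar differed for none of the 200 members and for 0% of the 24719 probes tested (limma, smallest adjusted p of a member 0.588; 30 members had an unadjusted p under 0.05, against 1512 of all probes). For 142 members the 95% interval of this difference lay within ±0.5 log2 units. Fenofibrate and bezafibrate differed for 6 members, of a background of 0.218% of all probes, and tesaglitazar and bezafibrate for 1, of a background of 0.138%. An unadjusted p under 0.05 was reached by 79 and 23 of the 200 members, against 2370 and 2190 of all 24719 probes. The intervals lay within ±0.5 for 112 and 145 members in these comparisons. The shares of all probes with such intervals are not given here. No adjusted p passed the threshold for the other members, which does not show that they were alike.

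Gpx3 read 8.40, 9.11 and 9.35 (lowest, median, highest) in fenofibrate amygdala and 7.21, 8.08 and 8.89 in bezafibrate amygdala. The ranges overlapped, and the difference was 0.78 ± 0.17 (adjusted p = 0.0207). Agt read 7.29, 7.997 and 8.62 in fenofibrate amygdala and 7.24, 7.59 and 7.88 in bezafibrate amygdala, a difference of 0.49 ± 0.11 (0.0366). The third higher member was 5031439G07Rik, at 0.28 ± 0.07 (0.0428). Both Dcn probes were lower under fenofibrate, by -1.11 ± 0.23 and -1.22 ± 0.24 (0.0194 and 0.0185), the first reading 8.26, 9.41 and 10.53 in fenofibrate and 9.41, 10.87 and 11.49 in bezafibrate amygdala. Sertm1, a small neuronal membrane protein, was lower by -0.58 ± 0.13 (0.0316), at medians of 9.95 and 10.55. Each of the 6 kept its direction among mice numbered 1 to 20 and 21 to 40, with Gpx3 at 0.59 and 0.98. All 6 calls were lost when only these 2 groups were fitted, and Gpx3, Agt and 5031439G07Rik when arrays were median centred.

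Chd4, a chromatin remodeller, was the member that differed between tesaglitazar and bezafibrate. Its levels were 9.60, 9.98 and 10.20 in tesaglitazar amygdala and 9.03, 9.40 and 9.78 in bezafibrate amygdala, overlapping between 9.60 and 9.78. The difference was 0.56 ± 0.08 (adjusted p = 7.58e-05), and 0.45 and 0.69 in mice numbered 1 to 20 and 21 to 40, with an adjusted p of 0.0727 when only these 2 groups were fitted. The saline amygdala arrays, which the choice used, read 9.45, 9.79 and 10.34.

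In prefrontal cortex, where the members are lower by their definition, 5 were lower under fenofibrate than under tesaglitazar and none was higher, on backgrounds of 2.81% lower and 2.65% higher (5.46% in either direction). Mt3, the brain metallothionein, read 10.23, 10.99 and 11.47 in fenofibrate cortex and 11.35, 11.44 and 11.60 in tesaglitazar cortex, and the median fenofibrate array lay below every tesaglitazar array. Its difference was -0.56 ± 0.12 (adjusted p = 0.00748). The others were Gstm6, a glutathione transferase of a family of similar genes, at -0.37 (0.0258), H1f10, a linker histone, at -0.37 (0.0167), Ncdn, neurochondrin, at -0.22 (0.0467) and Ip6k1, an inositol phosphate kinase, at -0.21 (0.0434). The Gstm6 call was lost with no background correction (-0.16, adjusted p = 0.129) and with the authors' processed values (-0.10, 0.247). The Ncdn and Ip6k1 calls were lost with no detection filter (0.0671 and 0.0591) and with only the 2 groups (0.0733 and 0.115). Another Gstm6 probe and 2 other Ncdn probes among the members did not pass, at -0.11, -0.09 and -0.12. Ip6k1 was at 0.02 among mice numbered 1 to 20 and -0.47 among the others. Without fenofibrate 20, 7 members were lower. Fenofibrate and bezafibrate differed for none (limma, background 0%, smallest adjusted p 0.24). Nor did tesaglitazar and bezafibrate (background 0.00405%, smallest adjusted p 0.807). An unadjusted p under 0.05 was reached by 15 and 4 members, against 2761 and 1289 of all 24719 probes.

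Whether the difference between regions itself depended on the agonist was tested by interaction. No member passed for fenofibrate against tesaglitazar (background 0.00405%, smallest adjusted p 0.258, limma), fenofibrate against bezafibrate (0%, 0.0692) or tesaglitazar against bezafibrate (0%, 0.656). Unadjusted p-values under 0.05 were found for 17, 62 and 7 members, against 2375, 3040 and 1030 of all probes. For no member, Dcn, Trh and Chd4 included, was the difference between regions shown to depend on the agonist.

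Against saline, brain comparisons share the arrays that chose the members, and the counts are a description from which nothing is read. In amygdala no member passed for fenofibrate, tesaglitazar or bezafibrate (limma, background 0% in each). An unadjusted p under 0.05 was reached by 85, 40 and 20 members, against 2064, 1513 and 1217 of all 23803 probes. The mean log2 level over the 200 members was 9.34 ± 0.05, 9.36 ± 0.10, 9.37 ± 0.10 and 9.32 ± 0.13 (SD) in fenofibrate, tesaglitazar, bezafibrate and saline amygdala. It was 7.70 ± 0.17, 7.74 ± 0.08, 7.70 ± 0.13 and 7.76 ± 0.15 in cortex. C1ql2, a secreted synapse organiser of dentate granule cells, read 7.29, 7.92 and 8.82 in fenofibrate amygdala and 8.13, 9.71 and 10.93 in saline amygdala, a difference of -1.50 ± 0.36 with an adjusted p of 0.218. In cortex, fenofibrate had 1 unnamed member higher and 10 lower (backgrounds 2.57% and 3.48%, 6.04% in either direction), with Mt3 at -0.56, Mas1, a receptor of the angiotensin system, at -0.43, Gstm6 at -0.41 and Pcdh19, a protocadherin, at -0.39. Tesaglitazar and bezafibrate had none (backgrounds 0% and 0.0130%).

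In liver, fewer than all of these probes could be measured. Of the 200, 69 were above background on none of the 37 liver arrays, 72 were above background on all, and 99 entered the tests. Liver arrays were normalised apart from brain, so levels cannot be set against brain levels. Under fenofibrate 15 of the 99 were higher and 15 lower, on backgrounds of 10.1% and 10.0% of 19984 probes (20.2% in either direction). Under tesaglitazar 23 were higher and 29 lower, on backgrounds of 18.2% and 19.1% (37.3%). Under bezafibrate none was higher and 1 was lower, on 0.701% and 0.731% (1.43%). Without the arrays labelled saline 4 and tesaglitazar 6 the counts were 17 higher and 20 lower for fenofibrate (14.7% and 15.4%), 25 and 35 for tesaglitazar (22.5% and 23.8%) and 2 and 3 for bezafibrate (1.54% and 1.67%). The members' shares lay near the background or somewhat above it, which was not tested. The agonist comparisons share the saline arrays. The calls made with the arrays as labelled held without the pair for all 30 members under fenofibrate, 51 of 52 under tesaglitazar, where Tubb2b was no longer tested, and 1 of 1 under bezafibrate. Differences below are as labelled unless stated.

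Lamb3, a laminin chain of epithelial basement membranes, had the largest rise. Its log2 levels were 7.52, 8.63 and 9.40 in fenofibrate liver, 8.85, 9.65 and 10.20 in tesaglitazar liver without array 6, 4.97, 5.77 and 7.39 in bezafibrate liver and 4.93, 5.21 and 5.35 in saline liver without array 4. Array 6 of tesaglitazar read 5.28 and array 4 of saline 9.62. Apart from these, all fenofibrate and tesaglitazar arrays lay above all saline arrays. As labelled, Lamb3 rose by 2.93 ± 0.49 under fenofibrate (adjusted p = 5.94e-05) and 3.48 ± 0.49 under tesaglitazar (2.32e-06). Without the pair the rises were 3.38 ± 0.24, 4.40 ± 0.25 and, for bezafibrate, 0.82 ± 0.24 (0.049), which as labelled was 0.37 ± 0.49 (0.843).

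Lpl, Slc27a2 and Dbi, which handle lipids and were grouped after their values were seen, rose under fenofibrate and tesaglitazar. Lpl, lipoprotein lipase, a known PPAR target that adult liver keeps low, read 11.96, 12.19 and 12.54 in fenofibrate liver, 12.74, 13.22 and 13.74 in tesaglitazar liver without array 6, 9.03, 9.97 and 10.83 in bezafibrate liver and 8.58, 9.57 and 10.49 in saline liver without array 4. Bezafibrate and saline arrays overlapped and the other groups did not reach them. Lpl rose by 2.22 ± 0.44 and 2.87 ± 0.44 under fenofibrate and tesaglitazar as labelled, and by 2.61 and 3.72 without the pair, when bezafibrate was at 0.32 (adjusted p = 0.423). Slc27a2, a very long chain acyl-CoA synthetase of peroxisomes, rose by 0.34 (0.00632) and 0.30 (0.00689), and Dbi, the acyl-CoA binding protein, by 0.52 and 0.63. Without the pair these were 0.39 and 0.43 for Slc27a2 and 0.62 and 0.79 for Dbi. No member, Lpl included, was on the list of PPAR target genes used here. Of the 24 tested genes of that list, 19 were higher under fenofibrate and none lower. Under tesaglitazar 23 were higher and 1 lower, and under bezafibrate 1 was higher. Of all probes, 10.1%, 18.2% and 0.701% were higher under fenofibrate, tesaglitazar and bezafibrate. What drove the members' rises was not tested.

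The other rises were in varied genes. Fam183b, a ciliary gene, read 5.62, 6.19 and 6.99 in fenofibrate liver and 4.20, 4.37 and 4.64 in saline liver without array 4, where it was above background on 2 of 9 arrays, and it rose by 1.48 and 2.28 under fenofibrate and tesaglitazar, or by 1.75 and 2.90 without the pair. 5031439G07Rik rose by 0.91 and 1.22, and by 0.37 under bezafibrate without the pair (adjusted p = 0.00541). Amigo2, an adhesion protein, rose on both its probes, by 0.82 and 0.73 under fenofibrate and 0.51 and 0.39 under tesaglitazar. Cmbl, a hydrolase, rose by 0.73 and 0.83, Esyt3, a lipid transfer protein of membrane contacts, by 0.58 and 1.10, and Gaa, lysosomal acid glucosidase, by 0.37 and 0.63. An unnamed probe, ILMN_1242170, rose by 2.07 under tesaglitazar.

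Tmie, a part of the hair cell transduction complex, fell under all 3 agonists with the arrays as labelled and without the pair. It read 6.31, 6.86 and 7.49 in fenofibrate liver, 6.49, 6.84 and 7.25 in tesaglitazar liver without array 6, 6.33, 6.83 and 7.40 in bezafibrate liver and 7.67, 7.98 and 8.38 in saline liver without array 4. No treated array reached the saline range, apart from array 6. The differences were -0.99 ± 0.19 (adjusted p = 0.000213), -0.88 ± 0.19 (0.000273) and -1.02 ± 0.19 (0.00125), and -1.08, -1.15 and -1.10 without the pair. Agt, which liver makes for the circulation, fell by 0.52 (0.0164) under fenofibrate and by 0.69 (0.000711) under tesaglitazar, and without the pair by 0.63 and 0.93. It read 9.27, 9.53 and 9.79 in fenofibrate liver, 8.70, 9.21 and 9.79 in tesaglitazar liver without array 6, 9.76, 10.18 and 10.51 in bezafibrate liver and 9.77, 10.19 and 10.48 in saline liver without array 4. The fenofibrate call was lost when arrays were median centred, at -0.37 with an adjusted p of 0.166.

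Other members fell as well. Lrig1, a brake on growth factor receptors, fell by 0.64 and 1.0 under fenofibrate and tesaglitazar. No other member fell as far under tesaglitazar. Zbtb20, a transcriptional repressor, fell by 0.46 and 0.68. Ptpre, a tyrosine phosphatase, fell by 0.54 and 0.40 and Tiam1, a Rac activator, by 0.49 and 0.28. Both Dcn probes fell, by 0.42 and 0.45 under fenofibrate and 0.35 and 0.37 under tesaglitazar. Without the pair, 1 of them was also called lower under bezafibrate, at -0.31 (adjusted p = 0.0251), and the other was at -0.33 (0.0868). The unnamed probe ILMN_1255511 was the further bezafibrate fall called without the pair, at -0.28 (0.0328). Both Gstm6 probes fell under tesaglitazar, by 0.72 and 0.44. Under tesaglitazar 1 of 2 Slc17a6 probes and Tubb2b, a neuronal tubulin, were called higher at levels near background, and without the pair, when no saline array detected them, were at least 1.14-fold and 1.26-fold higher. The other Slc17a6 probe was not called with the arrays as labelled, at 0.18 (adjusted p = 0.0783). Without the pair it was called higher, at 0.24 (0.00942).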

How the data were processed

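RNA was isolated with a magnetic bead kit, amplified and labelled with biotin, per the labels' protocols. Per the file headers, the deposited table holds the raw intensity of each probe on each array, with no background subtracted, and beside it the detection p-value of that probe against the array's negative controls. The authors' processed values, deposited as well, have the size of log2 values, with medians of 7.375, 7.289 and 7.067 on every amygdala, cortex and liver array. Their centring and scaling are unknown. The submitters' processing notes name lumi, with no version. Columns were matched to samples by title, and 8 further array columns were not used.

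Everything else was computed with R 4.3.3, limma 3.58.1 and Python 3.11.15. Members were chosen on quantile-normalised log2 raw intensity. For all tests and levels, background was removed by normexp, with its parameters taken from detection p-values. An offset of 16 was added, which understates differences of dim probes. Values were then put on the log2 scale and quantile normalised. Brain levels come from all brain arrays normalised together. Probes with a detection p under 0.05 on at least 9 arrays of a fit were tested by lmFit and eBayes, two-sided, with Benjamini-Hochberg adjustment over all probes tested. Region, between-agonist and interaction contrasts came from 1 fit of 6 groups over 56 arrays, without saline. Agonist against saline came from a fit of 4 groups per tissue. The script was tested on simulated data. Above background, 46.4 to 50.6% of probes were detected per amygdala array, 44 to 49.8% per cortex array and 38.1 to 42.7% per liver array, at mean signals of 305 to 447, 245 to 409 and 243 to 379 units. The number of arrays limits the precision.

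The members and gene lists were chosen with earlier results of these data known. Named members are the 20 with the largest saline difference, those on a list, those at the limit and up to 5 rises and 5 falls per contrast. Npy2r, Nos1, Rxfp3, Meis1, Gpx3, Agt, the remaining liver genes and the members whose levels are printed were named after their values were seen, as were single arrays. Symbols come from the platform annotation, updated through RefSeq for GRCm38.p6. Array numbers 1 to 40 do not repeat across treatments and were taken as the mouse. Deviations of the members in the 2 regions correlated at a median of 0.0617 over 35 shared numbers, and above 0.1 for 15 of them. Alternatives were no background correction, median centring, no detection filter, trend and robust moderation, the authors' values, the 2 groups alone, a term for numbers 1 to 20 against 21 to 40, a replicate block, all 8 brain groups, other ways of choosing the members, and fits without the arrays that stood apart.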

Additional observations from a re-analysis of the deposited data

Results flagged for a closer look

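Levels of the members shown were examined for single arrays that lay far from the rest of their group, by the gap to the nearest other array as a share of the group's range. Of 216 group spreads examined, 34 had such an array, and chance alone marks about 1 group in 20. The arrays recur. They were named after the values were seen, and what set them apart was not tested.

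The prefrontal cortex array fenofibrate 20 was the highest of its group for Dlk1 (7.001), Hap1 (11.57), Trh (9.90), Gal (7.90), Gad2 (12.05), Gfap (10.53), Calb2 (12.64) and Meis1 (9.54) and for the mean over the 200 members (8.12), and the lowest for Sertm1 (8.61). The cortex array saline 4 was the highest for Gal (6.04), Gfap (9.34) and Meis1 (8.04). The cortex array saline 2 was the highest for C1ql2 (9.57), Fibcd1 (9.97) and Npy2r (6.42). Single cortex values stood apart for Dlk1 on tesaglitazar 28 (6.11) and Gad2 on bezafibrate 15 (11.10).

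The amygdala array saline 25 was the lowest of its group for Tsr3 (7.40), Hap1 (11.62), Cartpt (6.74), Gpx3 (5.63) and Calb2 (9.72). Npy2r was apart on the amygdala array bezafibrate 34 (8.60).

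In liver, tesaglitazar 6 was the lowest of its group for Lamb3 (5.28), Lpl (9.16), Fam183b (4.22) and Slc27a2 (13.42) and the highest for Tmie (8.51). Saline 4 was the highest of its group for Lamb3 (9.62), Lpl (13.45), Fam183b (7.18) and Dbi (14.30) and the lowest for Agt (9.10). For Lamb3 and Lpl each of these arrays lay outside the other arrays of its labelled group and within or near the range of the other.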

How the results depend on the processing

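The count of members higher in amygdala stayed within 1.5 times under each alternative run for the 3 agonists, as did the 0 calls of the interaction contrasts and the liver counts for fenofibrate and tesaglitazar. No named member reversed. The 6 members that differed between fenofibrate and bezafibrate in amygdala became 10 with no background correction, 3 with median centring, 3 with no detection filter, 15 with the authors' processed values and 0 with only the 2 groups. The single member between tesaglitazar and bezafibrate in amygdala became 2 with no background correction, 2 with the authors' values and 0 with only the 2 groups. The 5 members between fenofibrate and tesaglitazar in cortex became 8 with median centring, 3 with no detection filter and 12 with only the 2 groups. The 11 members between fenofibrate and saline in cortex became 1 with median centring and 4 with only the 2 groups. For bezafibrate in liver, 1 became 5 without saline 4 and tesaglitazar 6. Fits of 2 groups rest on fewer arrays; the cause of the other shifts was not tested.

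With the replicate block, 196 members were higher in amygdala under fenofibrate, 199 under tesaglitazar and 200 under bezafibrate. The pairing ended the call of Fibcd1 under tesaglitazar (1.01, adjusted p = 0.0727) and of no other named member; that call was also lost with no detection filter (0.0654), the authors' values (0.0517) and all 8 brain groups (0.0513). Choosing the members after normexp correction kept 131 of the 200, and leaving out each saline array in turn kept 183 to 198, with the fewest without the amygdala array saline 25. Low signals limit Gal, Ecel1 and Dlk1 in cortex.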
